A study of Ostreococcus tauri with 84 samples.

Results

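The genes described here are 162 of the 7668 genes quantified in the marine picoalga *Ostreococcus tauri*, and they share a shift of their daily maximum between seasons. They were chosen on their mean FPKM (fragments per kilobase of transcript, scaled to the mapped total of each library, a length-corrected expression level) over 3 libraries per time point. Each has its highest mean at ZT12 under short days and at ZT0 under long days, where Zeitgeber time (ZT) counts hours from the start of the light period. In both photoperiods the highest mean had to reach 20 FPKM, and the highest mean divided by the lowest mean plus 1 FPKM had to reach 6. Of 2709 genes peaking at ZT12 under short days and 1549 peaking at ZT0 under long days, 729 did both, and 162 of those also met the thresholds on level and amplitude. The name "dawn module" fits only the long-day timing, because ZT12 under short days lies in the dark, 4 h after lights off at ZT8.

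The series holds 84 RNA-seq libraries of the sequenced strain RCC4221, grown in column photochemostats under 6 light regimes and sampled every 4 h at 6 time points. Short-day (SD) cultures were lit for 8 h and dark for 16 h of each cycle, and long-day (LD) cultures were lit for 16 h and dark for 8 h, with 3 libraries per time point, labeled with sample numbers 1 to 3. Free-running cultures were moved from SD or LD into constant dark (DD, 2 libraries per time point, sample numbers 6 and 7) or constant light (LL, 2 libraries per time point, sample numbers 4 and 5), where circadian time (CT) counts hours from subjective dawn. Light rose and fell gradually within each simulated day, LL was held at the maximal irradiance, fresh medium entered during the light period, and the day that followed the transfer to constant conditions was not sampled. All libraries come from wild-type cells of 1 strain with no mutant or drug. Replicates were taken on consecutive days and no source names separate cultures, so p-values measure the spread between these samples, which may be technical. The labels do not tie sample numbers to days. A change from day to day, such as with time in constant conditions, therefore cannot be told apart from a difference between sample numbers.

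Because no counts were used, depth was estimated from the smallest FPKM steps of each library, and it was between 510000 and 14230000 reads with a median of 8400000. LD sample number 3 was shallow at 510000 to 6410000 reads. Tests of a difference between times or regimes are two-sided, and all of them compare DD or LL libraries, which the choice of genes did not use. The limma fit behind the LL contrasts also held the LD and SD libraries. The spread behind its standard errors and p-values thus comes partly from libraries that chose the members. The LD ZT8 library of sample number 3 lists 65 of the 162 genes at 0 at an estimated 1500000 reads. The SD ZT4 library of sample number 3 lists 53 at 0 at 6040000 reads, a depth near that of LD sample number 1 (5450000 to 7830000 reads, with at most 11 members at 0). The lowest means under LD and SD thus include 1 library each in which many members are listed at 0.

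Annotated members include genes of the machinery that builds ribosomes. In eukaryotes, RNA polymerase I makes the long precursor of the large ribosomal RNAs in the nucleolus, RNA polymerase III makes 5S rRNA and tRNAs, and a large assembly called the small-subunit processome folds and cleaves the precursor with the help of helicases, GTPases and methyltransferases before the subunits are exported. Ribosome production is among the costliest tasks of a growing cell, and in algae it is known to be timed within the day. The module also holds the nitrate assimilation genes, whose products import nitrate and reduce it to ammonium, and the CCA1 ortholog, a Myb factor that forms the core loop of the *Ostreococcus* clock together with TOC1.

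By annotation or gene name, 17 members belong to ribosome assembly, 16 are helicases, 10 modify rRNA or tRNA, 6 are RNA polymerase subunits, 9 are regulators of transcription and chromatin, 8 are placed under nitrogen uptake and assimilation, 5 are core histones and 91 have other annotations. One of the 8, *ostta10g00960*, is annotated as a sulphate transporter and lies in the run of nitrate genes. In the whole module, 26 genes are annotated only as unnamed or hypothetical proteins. These groups were assigned by hand after values had been seen, so they order the description and support nothing. The 16 helicase members are 16 of the 71 genes whose annotation is the helicase C-terminal domain, and the 5 histone members are 5 of 10 genes annotated as histone core. The plot of median levels shows the whole module, and the heat map of the 162 genes shows the groups.

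**Figure D1:**
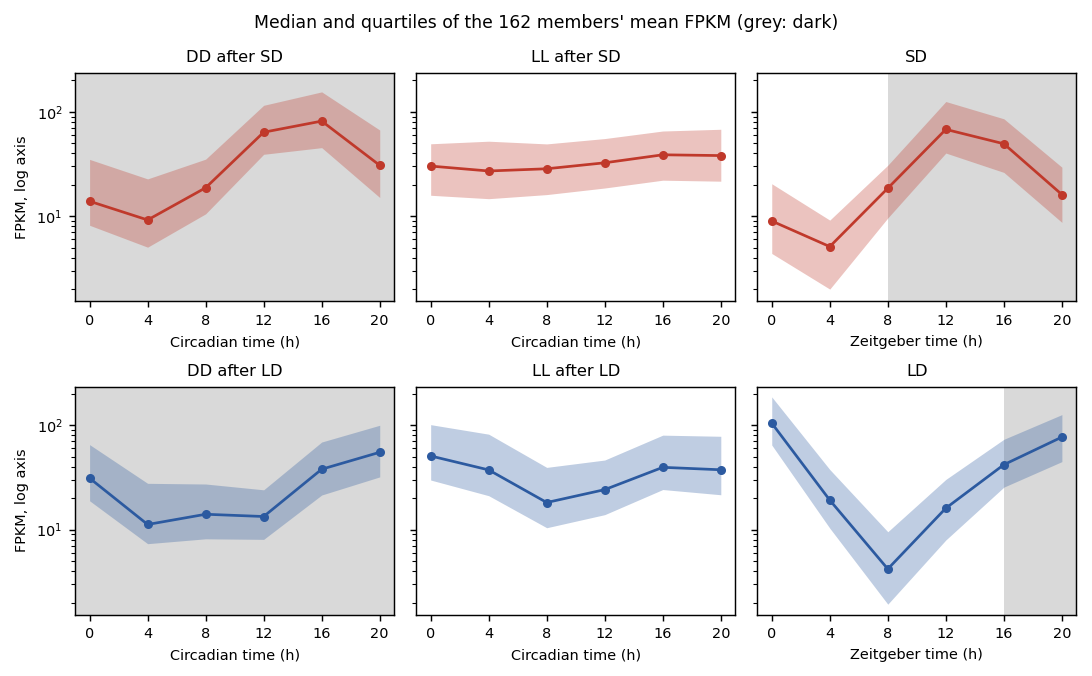
Median (line) and quartiles (band) of the mean FPKM of the 162 members at each time point, on a log axis, with hours on the horizontal axis, SD-entrained regimes above and LD-entrained regimes below, and grey marking dark. The median reached 81.4 FPKM at CT16 in DD after SD and 54.9 FPKM at CT20 in DD after LD, and stayed between 27.1 and 38.8 FPKM in LL after SD.

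Under the 2 photoperiods, which are described here with no test because they chose the members, the module had larger amplitudes in LD than in SD. The highest SD mean was between 20.3 and 7490 FPKM with a median of 67.8 FPKM, and the highest LD mean was between 25.1 and 6815 FPKM with a median of 104 FPKM. The amplitude ratio had a median of 12.3 in SD and 20.3 in LD. Over all genes its median was 2.076 in SD and 2.965 in LD, so a larger ratio in LD is not particular to the module. For a typical gene the SD maximum was 0.703 of the LD maximum (quartiles 0.593 and 0.811), and 16 of the 162 had a higher maximum in SD. The lowest mean fell at ZT4 for 124 members and at ZT0 for 36 in SD, and at ZT8 for 148 in LD. Both ZT4 in SD and ZT8 in LD lie in the light, whereas ZT0 was sampled immediately after lights on, at the end of the dark.

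The timing was steadier between sample numbers in SD than in LD. The highest value stood at SD ZT12 in all 3 sample numbers for 130 members and in 2 of 3 for 30. It stood at LD ZT0 in all 3 sample numbers for 64 members and in 2 of 3 for 84, and in LD sample number 3 the maximum lay at ZT0 for 85 members and at ZT20 for 75. Applied without sample number 1, 2 or 3, the same rule gave 152, 152 and 194 genes, of which 125, 133 and 128 were among the 162. Without LD sample number 3 alone it gave 197 genes, which hold 92.0% of the 162 and none of the 5 histones. Just inside the level threshold were the helicase *ostta11g02640* at 20.3 FPKM and the histone *ostta05g03770* at 21.1 FPKM, and just outside were *ostta11g02280*, a monooxygenase, at 19.1 FPKM and *ostta04g00340*, unnamed, at 17.9 FPKM. Just inside the ratio threshold were *ostta05g02690*, a nucleotide-binding domain protein, at 6.01 and *ostta15g02560*, a 2-phosphoglycolate phosphatase, at 6.03. Just outside it were *ostta09g03130*, related to Surfeit locus 6, at 5.97 and *ostta10g00010*, related to Suppressor of forked, at 5.96.

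**Figure D2:**
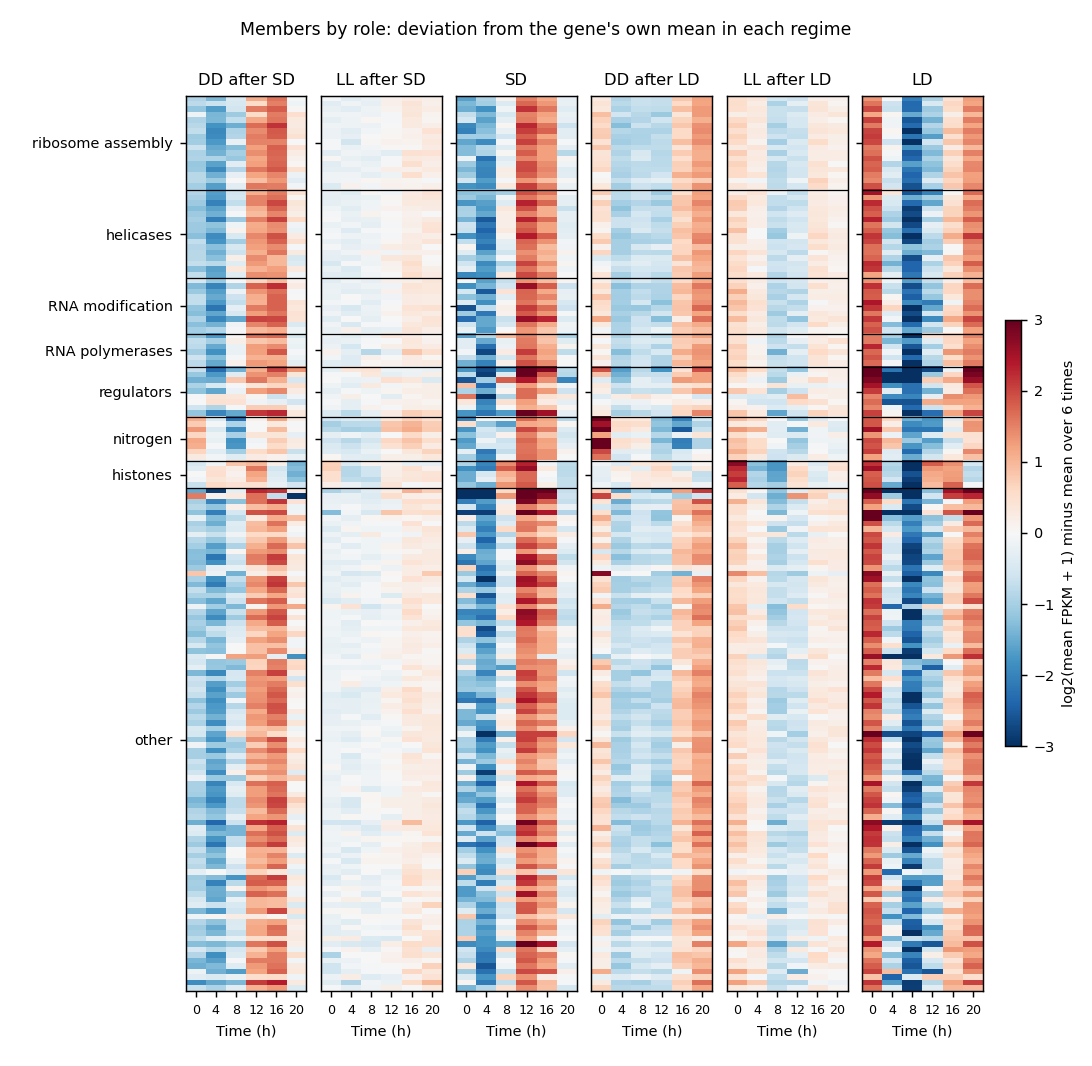
Heat map of the 162 members (one line of cells per gene, grouped by role) over 6 time points in each regime, with hours on the horizontal axis and SD-entrained regimes left of LD-entrained regimes. Color gives log2(mean FPKM + 1) minus the gene's own mean in that regime, from blue (low) to red (high). All 17 ribosome assembly genes are highest at CT20 in DD after LD, whereas 8 of 8 nitrogen genes are highest at CT0 there.

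In constant dark the module kept a daily swing whose timing depended on the photoperiod before the transfer. In DD after SD, 123 of 162 members (75.9%, against 16.2% of all genes) had their highest mean at CT16 and 29 at CT12. In DD after LD, 136 members (83.95%, against 24.5% of all genes) had it at CT20 and 11 at CT0. The peak thus stood 4 h later than under SD and 4 h earlier than under LD, at the 4 h resolution of the sampling. The highest mean was at least 6 times the lowest mean plus 1 FPKM for 71.0% of members in DD after SD, against 9.64% of all genes, and for 17.3% of members in DD after LD, against 3.86% of all genes. The median ratio was 8.25 in DD after SD (2.14 over all genes) and 4.45 in DD after LD (1.81 over all genes).

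A rank test for a 24 h rhythm with a permutation p, adjusted by Benjamini-Hochberg over all genes, called 134 of 162 members rhythmic in DD after SD, where it called 36.4% of all genes. It called 8 members in DD after LD, against 2.5% of all genes. At an unadjusted p under 0.05 it held 137 members, for which no share over all genes is given here. The sample numbers pair DD libraries, and with the number as a block the test called 107 members in DD after LD, against 49.1% of all genes. A harmonic fit in limma called 142 members in DD after SD, against 50.8% of all genes, and 137 in DD after LD, against 30.1% of all genes. Without sample number 7 the harmonic fit called 0 members and 0 of all genes in DD after LD. The 8 members called in DD after LD without the block include the Brix-domain protein *ostta17g01600*, which in yeast belongs to a family of ribosome assembly factors, at an adjusted p of 0.0493 by the rank permutation test.

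The time of the entrained maximum was set against the time 12 h away with limma on log2(FPKM + 1), with Benjamini-Hochberg adjustment over all 7668 genes. In DD after SD, 113 members were higher at CT12 than at CT0, where 7.52% of all genes were, and 0 were lower (0 also at an unadjusted p under 0.05), where 4.19% of all genes were. In DD after LD, 41 members were higher at CT0 than at CT12, against 8.49% of all genes, and 89 with the sample number as a block, against 15.6% of all genes. None was lower at CT0 than at CT12 in DD after LD (0 also at an unadjusted p under 0.05), where 10.5% of all genes were. The median difference was 2.02 in log2 for the members (0.15 over all genes) in DD after SD and 1.40 (-0.17 over all genes) in DD after LD. It was above 0 in 151 and in 147 of the 162, against 59.8% and 41.2% of all genes. Leaving out DD after SD sample number 6 or sample number 7 left 0 calls at CT12, with 48 and 128 members at an unadjusted p under 0.05, and leaving out DD after LD sample number 6 left 0 calls at CT0, with 10 members at an unadjusted p under 0.05.

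**Figure D3:**
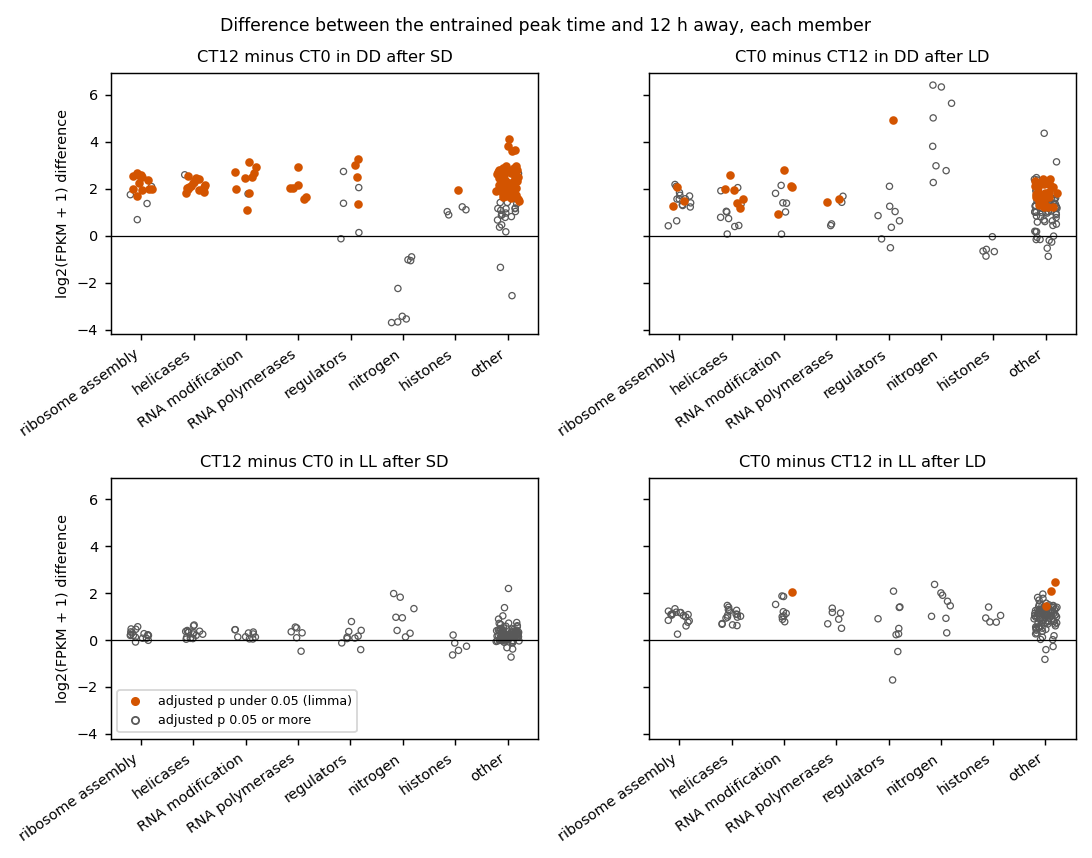
Difference in log2(FPKM + 1) between the entrained peak time and the time 12 h away for each member (points, spread sideways within a role), in DD (top) and LL (bottom), after SD (left) and after LD (right). Filled points have a limma adjusted p under 0.05. In DD after SD, 113 members are filled and the 8 nitrogen genes lie below 0, and in LL after SD 0 members are filled.

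The difference between CT12 and CT0 itself depended on the previous photoperiod. In a contrast added after the data had been seen, CT12 minus CT0 was more positive in DD after SD than in DD after LD for 124 members, where 6.38% of all genes were called, and more negative for 0 (0 also at an unadjusted p under 0.05 by limma), where 1.9% of all genes were called. The median of this contrast was 3.35 in log2 over members and -0.07 over all genes, and it was above 0 in 159 of 162, against 46.8% of all genes. Calls fell to 0 without DD after SD sample number 6 or DD after LD sample number 6 (126 members at an unadjusted p under 0.05 in each case), to 28 without DD after SD sample number 7 and to 102 without DD after LD sample number 7.

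Ribosome assembly genes moved together in DD. All 17 were higher at CT12 than at CT0 by value in DD after SD (59.8% of all genes were). The limma test was passed by 13 (7.52% of all genes did), and the median difference was 2.10 in log2. All 17 were higher at CT0 than at CT12 by value in DD after LD (41.2% of all genes were). There 3 passed (8.49% of all genes did), and the median was 1.56. UTP14 (*ostta04g00770*), a component of the small-subunit processome, had 74.5 and 40.7 FPKM at CT12, against 7.27 and 9.97 FPKM at CT0, in sample numbers 6 and 7 of DD after SD. CT12 and CT0 did not overlap, and the difference was 2.56 in log2 (SE 0.61, adjusted p = 0.0143). It had 24.3 and 24.7 FPKM at CT0, against 3.28 and 12.9 FPKM at CT12, in DD after LD. That difference was 1.72 in log2 (SE 0.61, adjusted p = 0.0613, or 0.0173 with the sample number as a block). CT0 and CT12 did not overlap there either, and sample number 7 had the smaller difference.

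BMS1 (*ostta05g01080*), a GTPase of the small-subunit processome, and UTP12 (*ostta08g03090*), a WD40 protein of the same particle, had like profiles. BMS1 had 56.7 and 28.3 FPKM at CT12, against 7.22 and 10.3 FPKM at CT0, in DD after SD, and 23.1 and 22.8 FPKM at CT0, against 1.12 and 12.1 FPKM at CT12, in DD after LD. Its adjusted p values by limma were 0.0908 and 0.0553, and 0.026 and 0.0151 with the sample number as a block. UTP12 had 83.1 and 36.3 FPKM at CT12, against 9.48 and 12.3 FPKM at CT0, in DD after SD (2.25 in log2, SE 0.64, adjusted p = 0.0325). In both genes sample number 6 swung more widely than sample number 7.

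Factors of the large subunit followed the same course. NOG (*ostta02g04030*), a nucleolar GTPase needed for 60S maturation in yeast, passed in both regimes. It had 166 and 94.7 FPKM at CT12, against 28.5 and 32.5 FPKM at CT0, in DD after SD (2.01 in log2, SE 0.48, adjusted p = 0.0143). After LD entrainment it had 71.3 and 81.1 FPKM at CT0, against 15.4 and 45.9 FPKM at CT12, in DD (1.48 in log2, SE 0.48, adjusted p = 0.0438). The groups of 2 libraries did not overlap in either regime. The Brix-domain gene *ostta17g01600* had 83.4 and 47.5 FPKM at CT12, against 6.86 and 14.4 FPKM at CT0, in DD after SD (2.54 in log2, SE 0.54, adjusted p = 0.00966). Nucleolar protein 14 (*ostta10g00090*), a processome component, differed by 2.51 in log2 in DD after SD (SE 0.57, adjusted p = 0.0116) and by 1.58 in DD after LD (SE 0.57, adjusted p = 0.0648, or 0.0187 with the block). Bystin (*ostta12g00070*), which acts late in 40S maturation, differed by 1.75 in DD after SD (adjusted p = 0.145, or 0.0237 with the block) and by 2.10 in DD after LD (adjusted p = 0.0543, or 0.00645 with the block).

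Helicases, RNA modification enzymes and RNA polymerase subunits shared this pattern. Of 16 helicases, 15 were called higher at CT12 in DD after SD (median 2.15 in log2) and 6 were called higher at CT0 in DD after LD (median 1.27). Of 10 RNA modification genes, 9 and 4 were called (medians 2.49 in DD after SD and 1.61 in DD after LD), and of 6 polymerase genes, 6 and 2 were called (medians 2.03 and 1.43). Over all genes 7.52% were called in DD after SD and 8.49% in DD after LD. The tRNA uracil-54 methyltransferase *ostta03g02610*, of the TrmA family, had 56.9 and 21.6 FPKM at CT12, against 1.99 and 6.51 FPKM at CT0, in DD after SD (2.93 in log2, SE 0.74, adjusted p = 0.0188). After LD entrainment it had 14.5 and 17.7 FPKM at CT0, against 0.169 and 4.16 FPKM at CT12, in DD (2.79 in log2, SE 0.74, adjusted p = 0.018). The largest subunit of RNA polymerase III (*ostta02g03840*) differed by 1.64 in log2 in DD after SD (SE 0.46, adjusted p = 0.0315) and by 1.55 in DD after LD (SE 0.46, adjusted p = 0.0308). *ostta12g01940*, a polymerase I factor of the A49 type, differed by 1.56 (SE 0.33, adjusted p = 0.00966) in DD after SD and by 0.43 (SE 0.33, adjusted p = 0.391) in DD after LD. All 16 helicases, 10 modification genes and 6 polymerase genes had their highest mean at CT20 in DD after LD.

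**Figure D4:**
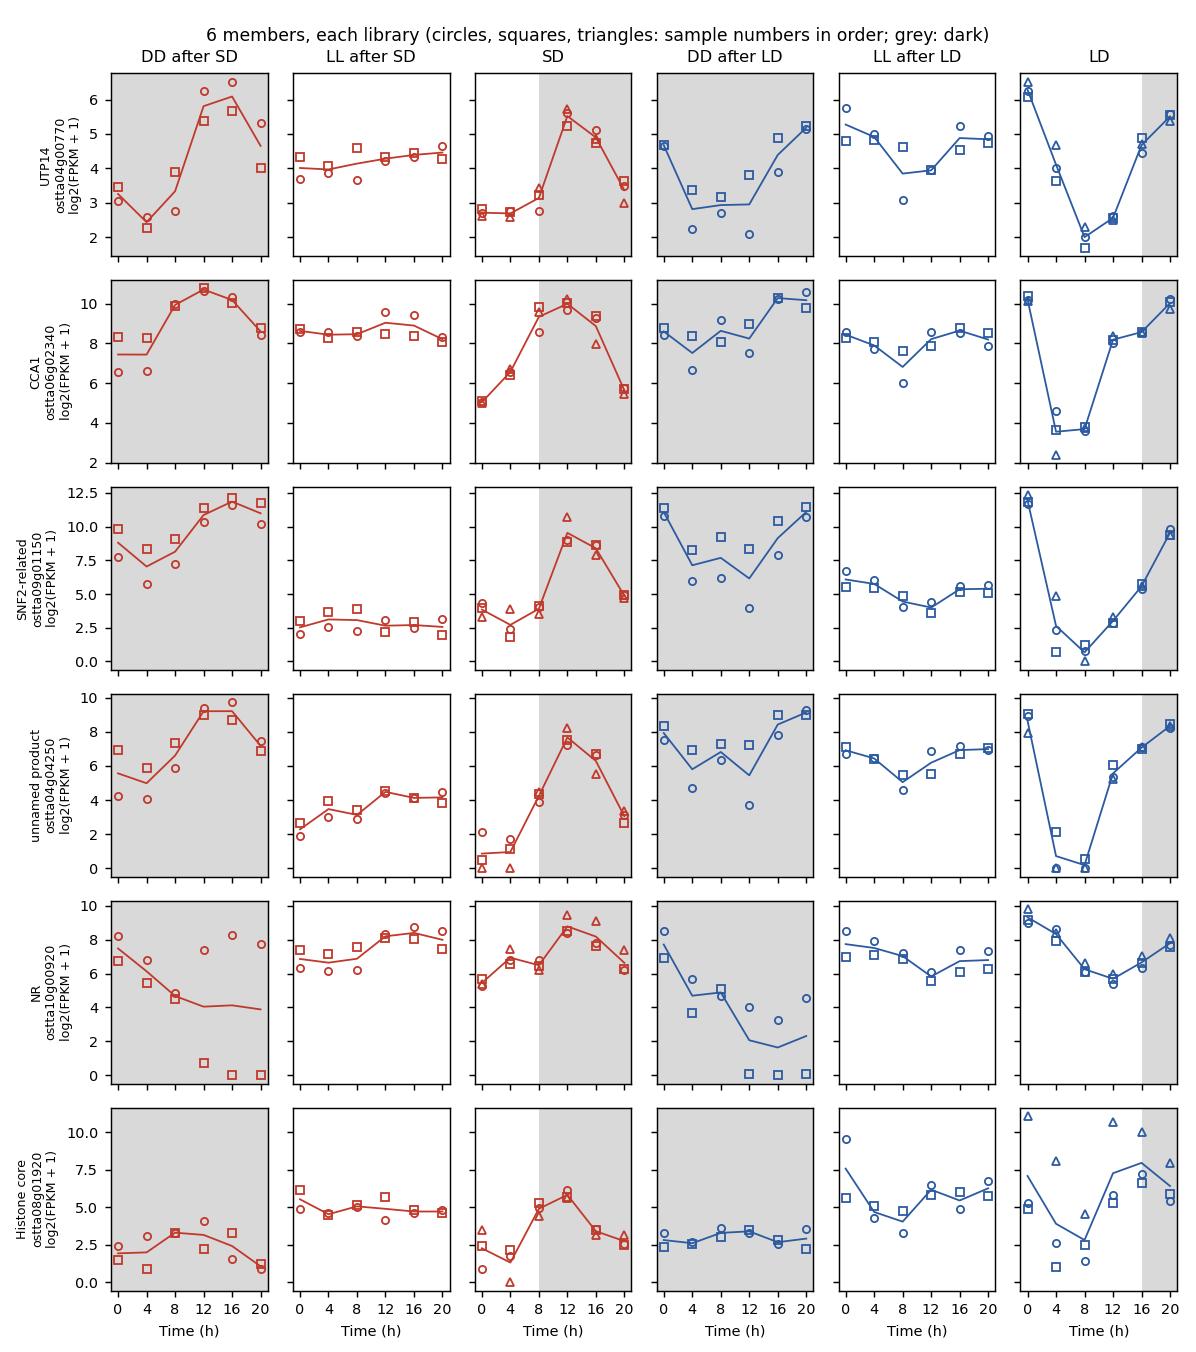
log2(FPKM + 1) of 6 members in every library (points, 1 marker per sample number, in order) with the mean of each time point (line), against time in hours, SD-entrained regimes left of LD-entrained regimes and grey marking dark. UTP14 swings in DD, NR (*ostta10g00920*) falls to 0 FPKM in 1 of 2 libraries at CT16 in DD, and the SNF2-related gene stays low in LL after SD.

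The 9 regulators were less uniform than the ribosome groups, and 4 of them passed at CT12 in DD after SD and 1 at CT0 in DD after LD. Over all genes 7.52% and 8.49% passed. CCA1 (*ostta06g02340*), the Myb clock factor, had 1611 and 1733 FPKM at CT12, against 94.8 and 313 FPKM at CT0, in DD after SD (3.27 in log2, SE 0.68, adjusted p = 0.00891). It had 339 and 441 FPKM at CT0, against 180 and 505 FPKM at CT12, in DD after LD, and the groups overlapped (0.36 in log2, SE 0.68, adjusted p = 0.752). Its values in DD after LD were instead highest later, with 1219 and 1261 FPKM at CT16 and 1510 and 876 FPKM at CT20. Under SD, CCA1 averaged 1028 FPKM at ZT12 and was also high at ZT8, with 385, 915 and 756 FPKM. Under LD it averaged 1186 FPKM at ZT0 and fell within 4 h to 23.6, 11.4 and 4.30 FPKM at ZT4.

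*ostta09g01150*, annotated as SNF2-related and so of the family of chromatin-remodeling ATPases, had the largest LD ratio of the module at 2362. It had 1742 and 2667 FPKM at CT0, against 14.6 and 324 FPKM at CT12, in DD after LD (4.92 in log2, SE 1.42, adjusted p = 0.0261). In DD after SD it had 1311 and 2618 FPKM at CT12, against 216 and 921 FPKM at CT0 (2.05 in log2, SE 1.42, adjusted p = 0.42, or 0.0477 with the block). Sample number 7 was higher than sample number 6 at each of these time points, which the block takes up. *ostta06g00630*, a winged helix DNA-binding protein, had 1376 and 2168 FPKM at CT12, against 133 and 501 FPKM at CT0, in DD after SD (2.74 in log2, SE 0.89, adjusted p = 0.0624, or 0.00251 with the block). The bZIP gene *ostta15g01060* and a second SNF2-related gene, *ostta08g03990*, did not pass between CT12 and CT0 in either DD regime. The bZIP gene had 121 and 67.3 FPKM at CT12, against 60.2 and 112 FPKM at CT0, in DD after SD, and these groups overlapped (0.13 in log2, SE 0.46, adjusted p = 0.909). For *ostta08g03990* the difference was -0.13 in log2 (SE 0.30, adjusted p = 0.864). The rank permutation test nevertheless called *ostta08g03990* rhythmic in DD after SD (adjusted p = 0.016), and with the sample number as a block it called *ostta08g03990* (adjusted p = 0.0282) and *ostta15g01060* (adjusted p = 0.0195) in DD after LD.

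The 8 nitrogen genes departed from the rest of the module in constant dark. They are 7 neighbors in the gene order, *ostta10g00910* to *ostta10g00970*, and the ammonium transporter *ostta20g00200*. Their highest mean stood at CT0 for 6 of 8 in DD after SD and for 8 of 8 in DD after LD. CT12 minus CT0 in DD after SD was below 0 in all 8 (median -2.84 in log2), whereas it was above 0 in 59.8% of all genes. CT0 minus CT12 in DD after LD was above 0 in all 8 (median 4.42), against 41.2% of all genes. Yet none passed by limma in either regime (0 of 8), and the 2 sample numbers differed widely. Nitrate reductase (NR, *ostta10g00920*) had 166, 305 and 218 FPKM at CT12, CT16 and CT20 in sample number 6 of DD after SD, against 0.636, 0 and 0 FPKM in sample number 7. The same gene had 15.6, 8.71 and 22.4 FPKM at those times in sample number 6 of DD after LD, against 0.0562, 0 and 0.0634 FPKM in sample number 7. At CT0 the gene had 302 and 104 FPKM in DD after SD and 367 and 119 FPKM in DD after LD. In DD after SD sample number 6 was thus about as high at CT16 as at CT0, and the values at or near 0 fell in sample number 7 at CT12 to CT20 in both DD regimes. What sets those 6 libraries apart was not tested, and day in the dark cannot be told apart from sample number.

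The other genes of nitrate uptake and reduction showed the same split. NRT3 (*ostta10g00940*), an accessory protein of nitrate transport, had 1537 and 6.62 FPKM at CT12, against 1965 and 1008 FPKM at CT0, in DD after SD. NRT2 (*ostta10g00950*), the high-affinity nitrate transporter, had 433 and 2.58 FPKM at CT12, against 789 and 267 FPKM at CT0. Nitrite reductase (NIR, *ostta10g00930*) had 191 and 0.137 FPKM at CT12, against 317 and 111 FPKM at CT0. In each of these genes the CT12 library of sample number 7 lies far below the other 3 libraries. The ammonium transporter *ostta20g00200* fell less far, with 3402 and 107 FPKM at CT12, against 3848 and 2140 FPKM at CT0. With the sample number as a block, CT0 was called higher than CT12 in DD after LD for NR (*ostta10g00920*, 5.64 in log2, adjusted p = 0.0206), NRT2 (6.42, adjusted p = 0.0253), NIR (5.02, adjusted p = 0.0304) and the ammonium transporter (3.81, adjusted p = 0.0102), and not for NRT3 (6.34, adjusted p = 0.063).

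In LL and under the 2 photoperiods the nitrogen genes varied less between sample numbers. NR (*ostta10g00920*) had 318 and 270 FPKM at CT12, against 80.6 and 165 FPKM at CT0, when LL followed SD (1.34 in log2, SE 0.53, adjusted p = 1.0 by limma). When LL followed LD, the values were 366 and 123 FPKM at CT0, against 66.6 and 46.8 FPKM at CT12 (1.91 in log2, SE 0.53, adjusted p = 0.0798). Neither passed, although the libraries of the 2 time points did not overlap in either regime. All 8 nitrogen genes had CT12 above CT0 by value in LL after SD and CT0 above CT12 by value in LL after LD. Of all genes 50.1% and 51.4% did.

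The 5 core histone genes met the rule only with LD sample number 3. *ostta08g01920* had 38.8, 28.3 and 2154 FPKM at LD ZT0 in sample numbers 1, 2 and 3, and 150, 97.6 and 1037 FPKM at LD ZT16. In sample numbers 1 and 2 its LD value was therefore highest at ZT16, not at ZT0, and no histone had its highest value at ZT0 in all 3 sample numbers. The 5 genes had medians of 22.9, 13.3 and 728 FPKM at LD ZT0 in the 3 numbers. SD values were lower and alike, with 69.0, 51.0 and 49.2 FPKM of *ostta08g01920* at ZT12. LD sample number 3 is also the shallow one, and what its depth does to these histone values was not tested.

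The time of the highest histone mean differed between the constant regimes. It was CT12 for 4 of 5 genes in DD after SD and 3 of 5 in DD after LD, and CT0 for 4 of 5 in LL after SD and 5 of 5 in LL after LD. In DD they were low, with a mean level of 5.20 FPKM in DD after SD and 6.07 FPKM in DD after LD as the median gene, against 10.1 FPKM under SD and 114 FPKM under LD. The LD value came from sample number 3, and without it, a setting chosen after the data had been seen, the LD level was 24.4 FPKM. Of the 5, only *ostta08g01910* passed at CT12 in DD after SD, at 9.13 and 3.72 FPKM, against 0.294 and 1.53 FPKM at CT0 (1.94 in log2, SE 0.58, adjusted p = 0.0432 by limma), and all 5 had CT12 above CT0 by value. All 5 had CT0 below CT12 by value in DD after LD (median -0.65 in log2, none called). Of all genes, 59.8% had CT12 above CT0 in DD after SD and 41.2% had CT0 above CT12 in DD after LD. In LL after LD, sample number 4 stood apart at CT0, where *ostta08g01920* had 757 FPKM in sample number 4 and 47.1 FPKM in sample number 5.

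Among the 91 members with other annotations, 65 were called higher at CT12 in DD after SD and 25 higher at CT0 in DD after LD. Over all genes 7.52% and 8.49% were called. The CCCH zinc finger gene *ostta08g01880* had the largest difference in DD after SD, with 1558 and 1209 FPKM at CT12, against 38.4 and 159 FPKM at CT0 (4.11 in log2, SE 1.11, adjusted p = 0.0252). CCCH zinc fingers commonly bind RNA. The unnamed gene *ostta04g04250* had 677 and 506 FPKM at CT12, against 17.6 and 119 FPKM at CT0, in DD after SD (3.64 in log2, SE 1.08, adjusted p = 0.0404). It had 181 and 322 FPKM at CT0, against 11.9 and 146 FPKM at CT12, in DD after LD (2.48 in log2, SE 1.08, adjusted p = 0.12, or 0.0372 with the block). *ostta09g01760*, annotated as restriction endonuclease-like, had 48.8 and 17.0 FPKM at CT12, against 0.758 and 1.58 FPKM at CT0, in DD after SD (3.82 in log2, SE 0.71, adjusted p = 0.00703). All 3 genes had their 2 CT12 libraries above their 2 CT0 libraries. Because *ostta08g01880* and *ostta09g01760* were named for the size of this difference, that separation supports nothing for them. *ostta03g00240*, with a lectin-like fold, was called higher at CT12 in DD after SD (1.74 in log2, adjusted p = 0.0274), and in DD after LD CT0 minus CT12 was -0.88 in log2, the lowest of the module (adjusted p = 0.211). Another unnamed gene, *ostta17g01050*, ran against the module with 229 and 2.91 FPKM at CT12, against 187 and 29.9 FPKM at CT0, in DD after SD (-1.35 in log2, SE 1.65, adjusted p = 0.698).

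In constant light the swing of the module was small after SD and moderate after LD. In LL after SD the median member stayed between 27.1 and 38.8 FPKM over the 6 time points, and its ratio had a median of 1.54 (1.34 over all genes). In LL after LD the median was 50.6 FPKM at CT0 and 18.2 FPKM at CT8, and the ratio had a median of 2.58 (1.59 over all genes). No member in LL after SD, against 0.196% of all genes, and 9 members (5.56%) in LL after LD, against 0.874% of all genes, had a ratio of at least 6. The 5 histones are among those 9, and taken alone sample number 4 gave 52 members past that ratio and sample number 5 gave 0. The highest mean stood at CT16 for 85 members (52.5%, against 17.8% of all genes) and at CT20 for 59 in LL after SD, and at CT0 for 120 members (74.1%, against 23.6% of all genes) in LL after LD. When LL followed SD, this timing was that of sample number 4, with 90 members at CT16 and 62 at CT20, while in sample number 5 the maxima were scattered, with 65 at CT8 and 11 to 24 at each other time. When LL followed LD, the maximum was at CT0 for 123 members in sample number 4 and for 71 in sample number 5, where 33 more had it at CT4 and 27 at CT20. The member medians were 60.6 FPKM at CT0 and 11.0 FPKM at CT8 in sample number 4, and 39.3 and 26.4 FPKM in sample number 5. The CT0 library of sample number 4 was the shallowest in LL, at 2080000 reads, and the part of its depth in these values was not tested.

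The rank test called 0 members rhythmic in LL after SD, as in 0% of all genes, with 12 members at an unadjusted p under 0.05, against 9.74% of all genes. It called 0 members in LL after LD, as in 0% of all genes, with 77 members at an unadjusted p under 0.05, against 22.1% of all genes. The harmonic fit in limma called 0 members in LL after SD, against 0.261% of all genes, and 0 in LL after LD, against 0% of all genes. With the sample number as a block, the rank test called 29 members in LL after LD, against 10.6% of all genes. Same-numbered libraries of that regime deviated together in only 18 of 30 pairs.

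At the entrained peak times LL gave few calls. In LL after SD, limma called 0 members higher at CT12 than at CT0 (5 at an unadjusted p under 0.05), against 0.013% of all genes, and 0 lower (0 at an unadjusted p under 0.05), against 0% of all genes, and the median difference was 0.22 in log2. In LL after LD, 4 members were higher at CT0 than at CT12 (80 at an unadjusted p under 0.05), against 0.326% of all genes, and 0 were lower (1 at an unadjusted p under 0.05), against 0.183% of all genes. The median there was 1.06 in log2, and it was 0.02 over all genes. The difference was above 0 in 157 of 162 members, against 51.4% of all genes. Without LL after LD sample number 4 the calls were 0, and without sample number 5 they were 10. With the block there were 18, against 1.37% of all genes.

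The lowest value in LL after SD was that of the unnamed *ostta01g03550*, with 3.18 and 8.61 FPKM at CT12, against 7.34 and 12.2 FPKM at CT0 (-0.73 in log2, SE 0.80, adjusted p = 1.0), and the highest that of *ostta04g04250*, with 20.6 and 22.0 FPKM at CT12, against 2.72 and 5.37 FPKM at CT0 (2.20 in log2, SE 0.59, adjusted p = 0.895). The 4 members called in LL after LD were the methyltransferase *ostta03g02610*, the WD40 repeat protein *ostta13g00130*, the unnamed *ostta03g00910* and *ostta07g03260*, annotated as an auxin efflux carrier. *ostta07g03260* had 38.3 and 11.8 FPKM at CT0, against 2.31 and 3.80 FPKM at CT12 (2.49 in log2, SE 0.53, adjusted p = 0.0318). For UTP14 (*ostta04g00770*) the values after LD were 52.6 and 26.9 FPKM at CT0, against 14.4 and 14.4 FPKM at CT12 (1.33 in log2, SE 0.36, adjusted p = 0.0659). The values after SD were 17.6 and 19.3 FPKM at CT12, against 11.99 and 19.0 FPKM at CT0, and the groups overlapped (0.27 in log2, SE 0.36, adjusted p = 1.0). The dependence of CT12 minus CT0 on the previous photoperiod, also added after the data had been seen, was called by limma for 0 members in LL in the positive direction (67 at an unadjusted p under 0.05), against 0% of all genes, and for 0 in the negative direction (1 at an unadjusted p under 0.05), against 0.013% of all genes. With the block it was called for 3 in the positive direction, against 0.0522% of all genes.

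Mean levels in LL differed by previous photoperiod for some members, in both directions. Over 6 time points, 21 members were higher in LL after SD than in LL after LD, against 19.1% of all genes, and 20 were lower, against 13.8% of all genes. Both shares (13.0% and 12.3% of members) are below those of all genes. With 1 mean per regime and sample number, 12 were higher and 8 lower. Without LL after SD sample number 4 there were 13 higher and 7 lower, and without LL after LD sample number 4 there were 13 higher and 11 lower.

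The largest falls were in genes with steep profiles under LD. The unnamed gene *ostta04g04250* ranged from 2.72 to 22.0 FPKM in the 12 libraries of LL after SD, against 23.4 to 141 FPKM in LL after LD, a difference of -2.81 in log2 (SE 0.24, adjusted p = 3.16e-12). The SNF2-related gene *ostta09g01150* ranged from 2.91 to 13.7 FPKM in LL after SD, against 11.1 to 101 FPKM in LL after LD (-2.40 in log2, SE 0.30, adjusted p = 4.02e-08). The winged helix gene *ostta06g00630* ranged from 20.3 to 56.7 FPKM in LL after SD, against 92.0 to 292 FPKM in LL after LD (-2.40 in log2, SE 0.26, adjusted p = 2.12e-09). The first and the last of these did not overlap between regimes at any time point. An endonuclease III-like gene, *ostta05g01380*, and the CCCH gene *ostta08g01880* fell by 1.95 each in log2 (adjusted p = 2.3e-10 and 6.2e-07).

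Nitrogen genes were prominent among those with higher LL levels after SD, where 6 of 8 were called, against 19.1% of all genes. NRT2 (*ostta10g00950*) averaged 693 FPKM in LL after SD and 253 FPKM in LL after LD (1.49 in log2, SE 0.27, adjusted p = 2.64e-05), and NIR (*ostta10g00930*) 267 and 142 FPKM (0.93 in log2, SE 0.19, adjusted p = 0.000171). *ostta10g00970*, a MoaA-type protein of the family that makes molybdenum cofactor, which nitrate reductase needs, differed by 1.21 in log2 (SE 0.26, adjusted p = 0.000372). The ubiquitin ligase gene *ostta05g01690*, of the HECT type, differed by 1.28 (SE 0.16, adjusted p = 5.37e-08), and CCA1 (*ostta06g02340*) by 0.58 (SE 0.19, adjusted p = 0.0161).

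In DD most members had a slightly higher mean level after SD by value, and few passed the test. The level was higher in DD after SD than in DD after LD for 138 of 162 members (85.2%, against 38.6% of all genes). The limma test called 2 members higher in DD after SD than in DD after LD, against 1.24% of all genes, and 0 lower (4 at an unadjusted p under 0.05), against 6.61% of all genes. With the sample number as a block there were 10 higher, against 4.15% of all genes, and 3 lower, against 17.3% of all genes. With 1 mean per regime and sample number 0 were called, without DD after LD sample number 6 there were 0 higher, without DD after LD sample number 7 there were 23, and without DD after SD sample number 7 there were 5, while without DD after SD sample number 6 there were 2 lower. The 2 called members were *ostta12g01790*, an rRNA processing protein, at 0.85 in log2 (SE 0.24, adjusted p = 0.0432) and *ostta05g02690*, a nucleotide-binding domain protein, at 0.70 (adjusted p = 0.0183). The median difference was 0.23 in log2 over members and -0.08 over all genes.

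Lists drawn from annotation words show how much of each pathway the module holds. The module contains 7 of 16 small-subunit processome genes, 6 of 17 genes of 60S assembly, 4 of 21 of other rRNA processing, 8 of 78 of rRNA and tRNA modification, 3 of 11 of RNA polymerases I and III, 6 of 96 WD40 repeat proteins, 5 of 109 ribosomal proteins and 1 of 83 chaperones. It holds 0 of 9 genes named as RNA helicases, 0 of 44 aminoacyl-tRNA synthetases, 0 of 32 translation factors, 0 of 14 nuclear transport genes, 0 of 45 photosynthesis genes and 0 of 29 DNA replication genes. Thus 35 members stand in a list and 127 in none.

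In DD after SD some of the pathway genes outside the module were also called higher at CT12, where 7.52% of all genes were called higher and 4.19% lower. Of the processome list, 10 of 16 genes were higher at CT12 than at CT0, among them 5 of the 9 that are not members (median of those 9, 1.42 in log2, against 2.10 for the 7 members). Of the 60S assembly list 11 of 17 were higher, among them 6 of 11 non-members, of other rRNA processing 9 of 21 (8 of 17 non-members), of RNA polymerases I and III 6 of 11 (3 of 8), and of rRNA and tRNA modification 25 of 78 (18 of 70). No gene of these 5 lists was lower. Shares near that of all genes were those of ribosomal proteins, with 7 of 109 higher and 0 lower, of which 5 are the members, and of chaperones, with 6 of 83 higher and 2 lower. Of photosynthesis genes 26 of 45 were lower and 0 higher. Of WD40 repeat proteins 20 of 96 were higher and 1 lower, of RNA helicases 1 of 9 was higher, and of DNA replication 1 of 29. Of aminoacyl-tRNA synthetases 1 of 44 was higher and 2 lower, of translation factors 1 of 32 was lower, and of nuclear transport 1 of 14 was lower.

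In DD after LD, where 8.49% of all genes were called higher at CT0 than at CT12 and 10.5% lower, counts and medians ordered the lists differently. Of processome genes 2 of 16 were called higher (median 1.04 in log2) and of 60S assembly genes 2 of 17 (median 1.18), against a median of -0.17 over all genes. Of ribosomal proteins 28 of 109 were called higher (median 0.55) and 1 lower, of aminoacyl-tRNA synthetases 15 of 44 (median 0.67) and of translation factors 8 of 32 (median 0.69). None of the 5 ribosomal protein members was called. Of rRNA and tRNA modification 10 of 78 were higher and 6 lower, of other rRNA processing 2 of 21 were higher and 2 lower, and of RNA polymerases I and III 2 of 11 were higher. Of WD40 repeat proteins 7 of 96 were higher and 13 lower, of chaperones 9 of 83 higher and 9 lower, of nuclear transport 1 of 14 higher, of photosynthesis 4 of 45 higher and 1 lower, of DNA replication 1 of 29 higher and 4 lower, and of RNA helicases 0 of 9 in either direction. These lists were drawn with results of these data known, and the differences between lists were not tested.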

How the data were processed

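RNA-seq was made from *O. tauri* RCC4221 in 84 libraries. According to the study's methods and the labels, the authors ran FastQC on the reads, used HISAT2 to place them on the JGI genome and annotation of this strain, and took transcript levels from StringTie and Ballgown. They deposited FPKM values in a pair of tables, with 60 libraries of LD, SD and LL in 1 and 24 of DD in the other. Versions of these tools are not given in the sources used here, and no coordinates were used. Among DD values 182 were whole numbers without a decimal point, and 181 far from the other values of their gene were divided by 1000 (1 of them in a member).

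Members and gene lists were chosen with earlier results of these data known. Rhythms were tested in Python 3.11.15 with a circular umbrella rank test (1000000 permutations of ranks) and contrasts in limma 3.58.1 (R 4.3.3) on log2(FPKM + 1), without a filter, both with Benjamini-Hochberg adjustment over 7668 genes and a threshold of 0.05. The values of log2 differences understate changes of low genes. The tests were checked on simulated data. There the rank test was given 200 or 1500 rhythmic genes with a peak 4 times the trough. Of 200 it called 24.0% for DD after SD, 35.5% for DD after LD, 56.0% for LL after SD and 42.5% for LL after LD. Of 1500 it called 64.9%, 59.6%, 86.1% and 77.9% in the same order. A smaller ratio of peak to trough was not tested. Genes were named by a rule: study genes of ribosome biogenesis, up to 4 per list by LD maximum, the 5 highest LD maxima and ratios, the extremes of each contrast and the genes nearest each threshold. NR, CCA1, *ostta08g03990*, *ostta03g02610*, the extremes of level differences and the genes behind small counts were added after their values were seen. Same-numbered DD libraries of different time points deviated together (correlations over 0.1 in 30 of 30 pairs in each regime and in 12 of 12 across regimes, 0.325 to 0.633), which pairs them by sample number. In LL this held in 26 and 18 of 30 pairs and in 0 of 12 across regimes. DD and LL stand in different tables and were not tested against each other. Columns not mapped to a sample numbered 0.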

Additional observations from a re-analysis of the deposited data

Results flagged for a closer look

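The dependence of the CT12 minus CT0 difference on previous photoperiod in DD was tested with a limma contrast added after the data had been seen, and 124 members were called more positive in DD after SD than in DD after LD (adjusted over all genes). Over all genes 6.38% were so called. The values below are only those of genes chosen by the naming rule that passed this contrast (limma, adjusted p under 0.05). Named genes that did not pass are left out. Over all 162 members the contrast ran from -0.38 to 7.26 in log2. Among the named genes, the contrast in log2 was 4.28 for UTP14, 4.28 for BMS1, 3.65 for UTP12, 4.08 for *ostta10g00090*, 3.28 for *ostta07g02070*, 3.85 for *ostta12g00070*, 3.48 for *ostta02g04030*, 4.11 for *ostta17g01600*, 3.22 for *ostta17g02220* and 2.77 for *ostta15g01840*, which are ribosome assembly genes. It was 4.53 for *ostta04g04470*, 2.02 for *ostta06g01460*, 3.49 for *ostta06g04610* and 3.85 for *ostta13g02140*, which modify RNA, 3.20 for *ostta02g03840*, 4.59 for *ostta06g00090* and 1.99 for *ostta12g01940*, which belong to RNA polymerases, and 2.26 for the helicase *ostta11g02640*. The ribosomal protein genes *ostta04g01120*, *ostta05g04940* and *ostta17g00640* had 3.19, 4.88 and 3.24. The WD40 genes *ostta01g05470*, *ostta05g00450*, *ostta07g01810* and *ostta13g00130* had 3.21, 3.98, 3.50 and 2.03. It was 6.97 for the SNF2-related *ostta09g01150*, 4.84 for the winged helix gene *ostta06g00630*, 7.26 for the CCCH gene *ostta08g01880*, 6.11 for the unnamed *ostta04g04250*, 5.34 for *ostta09g01760*, 3.55 for *ostta05g02690*, 3.65 for *ostta15g02560* and 2.87 for the DnaJ gene *ostta02g02790*. Leaving out 1 sample number of 1 DD regime gave between 0 and 102 calls.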

How the results depend on the processing

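Of 151 alternatives computed for 21 counts, 116 were within 1.5 times the reported count. Those 116 include counts that were 0 under both settings. Counts of members with sample number as the replicate block were 107 rhythmic in DD after LD (8 without it), 29 rhythmic in LL after LD (0), 89 higher at CT0 in DD after LD (41), 18 higher at CT0 in LL after LD (4), 10 higher and 3 lower in DD after SD than in DD after LD (2 and 0), and 3 for the positive dependence on photoperiod in LL (0). In the same order, the shares of all genes with the block were 49.1%, 10.6%, 15.6%, 1.37%, 4.15%, 17.3% and 0.0522%. The block moved no other count by over 1.5 times. Same-numbered LL libraries deviated together in 26 of 30 pairs after SD and 18 of 30 after LD, but in 0 of 12 across regimes. LL values with the block are therefore given only as a description of these libraries. Upper-quartile scaling gave 13 rhythmic in DD after LD, 1 higher at CT0 in LL after LD, and 4 higher and 1 lower for the DD level. A pseudocount of 0.1 gave 2 higher at CT0 in LL after LD (19 of all genes). Taking 1 mean per regime and sample number gave 0 higher for the DD level (0 of all genes), and 12 higher and 8 lower for the LL level (525 and 416 of all genes). The limma harmonic fit gave 137 rhythmic in DD after LD, and 0 to 126 without a sample number. In each of these the cause was not tested.

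Leaving out 1 sample number at a time, where the lone library is assumed to vary like the rest, gave 0 higher at CT12 in DD after SD in both cases, 0 to 41 higher at CT0 in DD after LD, 0 to 10 higher at CT0 in LL after LD, 0 to 23 higher and 0 to 2 lower for the DD level, 13 to 15 higher and 7 to 22 lower for the LL level, and 0 to 102 in DD and 0 to 4 in LL for the positive dependence on photoperiod. With 2 libraries per time point, the calls at CT12 in DD after SD thus depended on both sample numbers. Nearly all calls over all genes were lost there too, so this loss is not particular to the members. Calls at CT0 were lost only without sample number 6 in DD after LD, and only without sample number 4 in LL after LD. Up to 1007 genes were listed at 0 in 1 library, and the zeros did not follow the estimated depth alone. FPKM without counts gives no counting interval for low values.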

Other observations

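Of the ribosome biogenesis genes that the study names, 3 did not meet the rule. MPP10 (*ostta05g01450*), a processome component, had the timing of the module with ratios of 5.39 in SD and 22.7 in LD. UTP11 (*ostta06g01560*) had it with ratios of 4.02 in SD and 17.75 in LD. RRS1 (*ostta15g01610*), a factor of 60S assembly, was highest at ZT16 in SD and at ZT0 in LD, with ratios of 3.81 in SD and 5.98 in LD. The SD ratio of each lay under the threshold of 6, and RRS1 also missed the SD timing and the LD ratio.

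Members were spread over 19 of the 20 chromosomes, and 23 of the 162 had a neighboring member. They form 9 runs, of which 8 hold 2 genes each, among them the histone pair *ostta08g01910* and *ostta08g01920*. The ninth run is that of 7 genes on chromosome 10, which holds the nitrate genes and the gene annotated as a sulphate transporter.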
